A study of Mus musculus with 14 samples.

Results

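The 3 transcripts uc009saj.1, uc007fmp.1 and uc009bev.1 are low-level rows, out of 63244 in the deposited table, whose response to rosiglitazone looked different in wild-type and Rbp7 knockout mouse carotid arteries. They were named from earlier results on the same libraries, uc009saj.1 for its difference with the drug in wild type and the other two for theirs in knockout. Their drug response is therefore what chose them, and it is given below as values without a test. The question put to the data was whether rows with adjacent identifiers shifted the opposite way, as they would if one isoform had been exchanged for another. For uc009bev.1 a row of that kind stood directly next to it, and the total of both rows hardly moved. The shift of that row did not pass after adjustment for all tested transcripts, and the total was formed after the data had been seen. Whether both rows belong to the same gene could not be checked. For uc009saj.1 the directly adjacent rows were near 0 throughout, and for uc007fmp.1 neither adjacent row stood apart between the KO groups. In the row directly after uc007fmp.1, however, only KO rosiglitazone replicate 4 reached into the higher range of the KO DMSO libraries.

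The libraries were made from carotid arteries of male C57BL/6J mice that were RBP7 wild-type (WT) or RBP7 knock-out (KO), exposed to 10 µM rosiglitazone or to the solvent DMSO for 24 h. There were 3 WT DMSO, 3 WT rosiglitazone, 4 KO DMSO and 4 KO rosiglitazone libraries. The labels differ on whether excised arteries or whole mice received the drug, and neither the age of the mice, nor how the gene was deleted, nor whether libraries came from separate animals is given in the sources used here. P-values thus measure only the spread between these libraries, which may be technical.

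Rosiglitazone is a thiazolidinedione that binds PPARγ, a nuclear receptor that pairs with the retinoid X receptor on DNA and is known as the master regulator of fat cell genes. In blood vessels PPARγ acts in endothelium and smooth muscle and is known for effects on vascular tone. Rbp7 encodes a small cytosolic retinol-binding protein, known as a PPARγ target in endothelium. Many genes give several isoforms, transcripts that share most of their exons, and a program such as kallisto divides the reads they share among them by estimation. Identifiers of the UCSC kind used here were handed out in runs along the genome, so that neighbours in the alphabet often, though not always, come from the same locus.

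The values are TPM, a share of all transcripts after correction for length, so levels can be compared and added between rows. TPM keep no read depth, and no counting interval can be given. Each library listed between 37843 and 39006 transcripts above 0. The KO libraries of replicate number 4 stood apart: their 2 most abundant transcripts held 33.2% (DMSO) and 37.5% (rosiglitazone) of the TPM, against 41.8% to 48.8% in the other 12. The WT libraries carry sample numbers 6 to 11. The KO libraries carry 2 to 5 and, for replicate numbers 3 and 4, 18 to 21. No range of numbers holds both genotypes, so genotype and sample number cannot be told apart. The table gives no gene names and 0 of its identifiers occurred in the reference tables at hand. The genes, positions and sequences of the 3 transcripts are therefore not reported, and neither the tissue markers nor the level of Rbp7 could be checked.

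All 3 transcripts were low. Over all 14 libraries the mean was 1.17 TPM for uc009saj.1, 2.41 TPM for uc007fmp.1 and 1.07 TPM for uc009bev.1, where the median of such means over 29304 tested transcripts (at least 1 TPM in at least 3 libraries) was 3.91 TPM. They passed that filter through 3, 10 and 5 libraries, so uc009saj.1 passed it through the WT rosiglitazone libraries alone. No other row carried the same values as any of them in every library (0 rows).

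Transcript uc009saj.1 was high in one group. The WT DMSO libraries read 0.426, 0.552 and 0.187 TPM, and the WT libraries with rosiglitazone read 5.05, 3.78 and 3.37 TPM. The KO DMSO libraries read 0.354, 0.416, 0 and 0.0792 TPM, and the KO libraries with the drug read 0.898, 0.823, 0 and 0.396 TPM. The WT groups did not overlap, as was so in this direction for 2.87% of tested transcripts. Every WT rosiglitazone library also lay above all 11 others, a pattern that 0.143% of tested transcripts showed (42 of 29304), whereas the 2 KO groups overlapped each other. The difference between drug and DMSO on the log2(TPM + 1) scale, which understates changes of low transcripts, came to 1.86 (SE 0.27) for WT and to 0.31 (SE 0.24) for KO, and the KO response minus the WT response was -1.56 (SE 0.36). The KO libraries numbered 2 to 5 had 0.385 TPM on average in DMSO and 0.860 TPM in rosiglitazone, and those numbered 18 to 21 had 0.0396 and 0.198 TPM. The KO level thus differed between the number ranges by more than between the treatments in the latter range, and the part of the number range in the KO values was not tested.

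Transcript uc007fmp.1 was near 0 in one group rather than raised in one. The WT DMSO libraries read 3.17, 4.00 and 2.91 TPM and those with the drug read 2.40, 3.20 and 6.53 TPM, so the WT groups overlapped. The KO DMSO libraries read 0.0214, 0.0210, 0.0218 and 0.0457 TPM, below every other library. With the drug the KO libraries read 3.51, 1.43, 2.99 and 3.48 TPM, which overlaps the WT range. The KO difference between drug and DMSO was 1.86 (SE 0.26) on the log2 scale and the WT difference 0.13 (SE 0.29), so that the KO response minus the WT response was 1.73 (SE 0.39). KO minus WT was -2.08 (SE 0.28) in DMSO and -0.35 (SE 0.28) in rosiglitazone. The KO difference was 1.69 in the libraries numbered 2 to 5 and 2.03 in those numbered 18 to 21. Of all 29304 tested transcripts, 1 (0.00341%), this one, was under 0.1 TPM in all 4 KO DMSO libraries and at 1 TPM or more in the other 10, a count made after its values had been seen. The count depends on these cut-offs: uc007bmt.3 was at 0 in the same 4 libraries and at 0.864 to 2.48 TPM in the other 10.

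Transcript uc009bev.1 showed the reverse, present mainly in KO DMSO. Its 4 libraries read 3.29, 4.24, 2.28 and 3.73 TPM, against 0.00051, 2.88e-08, 0.00046 and 0.0033 TPM with the drug. The WT DMSO libraries read 1.13, 0.0943 and 0.0061 TPM, and with rosiglitazone 0.0406, 9.56e-07 and 0.105 TPM. WT DMSO replicate 1 was thus the only library outside KO DMSO above 1 TPM, and every KO DMSO library exceeded it, as in 0.157% of tested transcripts. The difference between drug and DMSO was -2.11 (SE 0.24) in KO and -0.34 (SE 0.28) in WT on the log2 scale, and the KO response minus the WT response was -1.77 (SE 0.37). It was -2.24 in KO within sample numbers 2 to 5 and -1.97 within 18 to 21.

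**Figure D1:**
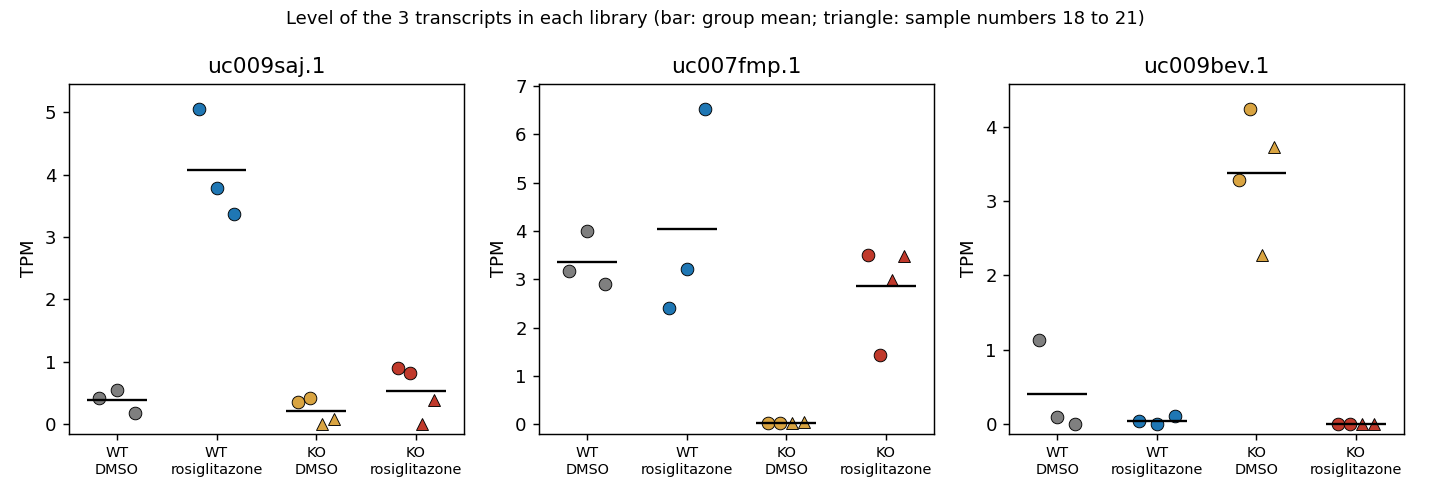
Level of each transcript in TPM (vertical axis) in every library of the 4 groups (horizontal axis), where a point is a library, a triangle marks sample numbers 18 to 21 and the bar is the group mean. Transcript uc009saj.1 is high in WT rosiglitazone alone (3.37 to 5.05 TPM), uc007fmp.1 is near 0 in KO DMSO alone, and uc009bev.1 is above 2 TPM in KO DMSO alone.

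Rows with neighbouring identifiers were then examined, 10 before and 10 after each transcript, 60 rows in all, of which 32 passed the filter and were tested. These rows were not chosen on their values. Isoforms that joined the annotation later carry other prefixes, so a partner outside the window would be missed. None was called by limma, a linear model fitted across all transcripts (adjusted p under 0.05 over all tested transcripts) in any of 5 comparisons. For rosiglitazone in WT 0 of 32 were called, where 0.00341% of all tested transcripts were, and for rosiglitazone in KO 0 of 32, where 0.0137% were. For the difference between the genotypes in their response it was 0 of 32 (0.00683% of all), for KO against WT in DMSO 0 of 32 (0.0512%) and in rosiglitazone 0 of 32 (0.041%). With shares this small, almost any 32 rows would give 0, so these counts say little about the neighbours. In the same order, 1, 3, 2, 2 and 2 of the 32 had an unadjusted p under 0.05, or 3.12%, 9.38%, 6.25%, 6.25% and 6.25%, beside 3.51%, 4.5%, 2.14%, 3.63% and 2.89% of all tested transcripts.

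No neighbour total differed between the treatments beyond the spread between libraries, but these totals could hardly show a shift as small as that of the transcripts. The transcripts differed by 3.68 (uc009saj.1), 2.82 (uc007fmp.1) and -3.38 TPM (uc009bev.1), less than the SD of each total below. No conclusion on exchange is drawn from the totals. Around uc009saj.1 the summed level of the 20 neighbouring rows, the transcript itself left out, was 89.9 ± 8.40 TPM in WT DMSO, and with the drug 85.9 ± 12.2 TPM (SD, n = 3 each; exact permutation test, two-sided, p = 0.8, where 0.1 is the smallest p possible). Around uc007fmp.1 it was 176 ± 16.2 TPM in KO DMSO, and with the drug 165 ± 28.2 TPM (SD, n = 4 each; exact permutation test, two-sided, p = 0.514). Around uc009bev.1 it was 77.1 ± 8.86 and 83.6 ± 10.8 TPM (SD, n = 4 each; exact permutation test, two-sided, p = 0.343, smallest possible 0.0286). Adjusted over the 3 totals these exact p-values became 0.8, 0.771 and 0.771. When the libraries were rescaled by median-of-ratios, the log2 difference of the last total was 0.23 instead of 0.11. Its exact permutation p was then 0.0286, the smallest possible, without adjustment over the 3 totals.

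**Figure D2:**
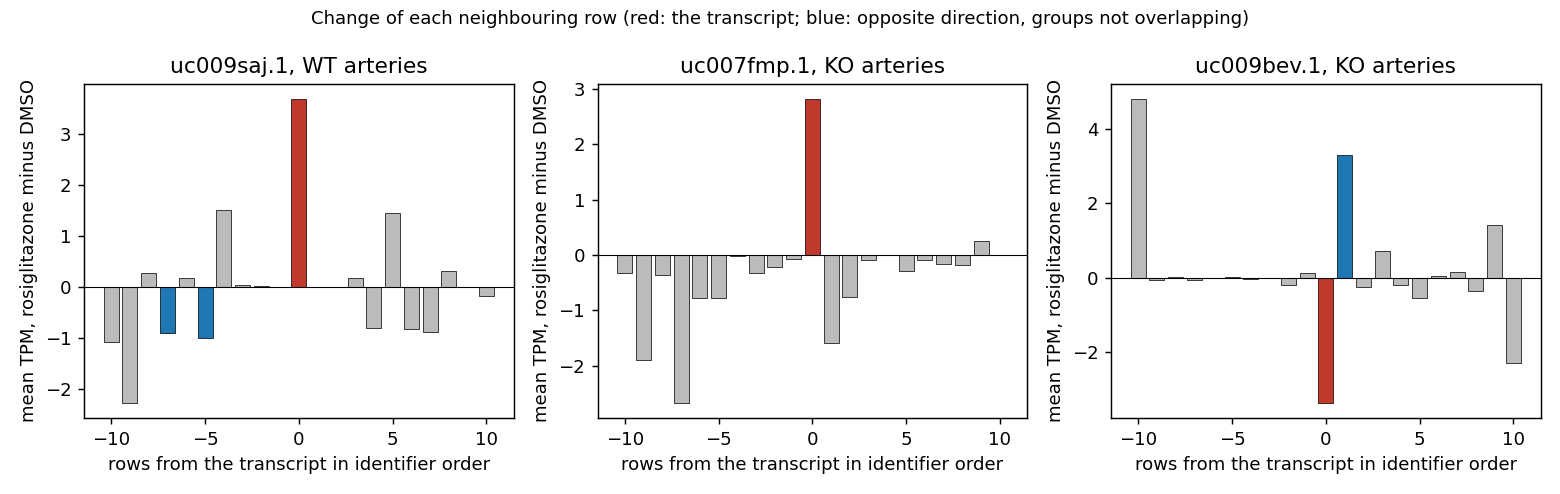
Mean TPM with rosiglitazone minus mean TPM in DMSO (vertical axis) for each of the 20 neighbouring rows by its distance in identifier order (horizontal axis), in WT for uc009saj.1 and in KO for the others. The red bar is the transcript itself, and blue bars are tested rows that lay apart from their DMSO group in the opposite direction: 2 rows for uc009saj.1, 0 for uc007fmp.1 and 1, directly next to it, for uc009bev.1.

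The opposite shift beside uc009bev.1 was in the directly next identifier, uc009bew.1. The KO DMSO libraries read 1.50, 0.00018, 2.18 and 1.98 TPM, and the KO libraries with the drug read 4.44, 4.42, 4.38 and 5.60 TPM, so the groups did not overlap. It was the only one of 11 tested neighbours to do so against uc009bev.1, where 0.519% of all tested transcripts were higher without overlap. Its log2 difference was 1.37 (SE 0.30), which did not pass in limma (adjusted p = 0.554, between 0.183 and 1.00 over the alternatives, unadjusted p = 0.00052). The WT libraries read 2.63, 4.02 and 4.34 TPM without the drug and 3.87, 4.59 and 4.11 TPM with it. Its lowest WT value was in the WT DMSO library that listed uc009bev.1 at 1.13 TPM. In DMSO, KO lay below WT in every library, with a log2 difference of -1.06 (SE 0.32; limma, adjusted p = 0.992, unadjusted p = 0.0060).

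The shifts were of nearly equal size. In KO the drug groups differed by -3.38 TPM for uc009bev.1 and by 3.29 TPM for uc009bew.1, leaving -0.087 TPM for the total of both. That total was 4.79, 4.24, 4.46 and 5.70 TPM in KO DMSO, and with the drug 4.44, 4.42, 4.38 and 5.60 TPM. The WT totals were 3.77, 4.12 and 4.35 TPM without it and 3.91, 4.59 and 4.21 TPM with it. The total therefore stayed between 3.77 and 5.70 TPM in all 14 libraries, and its log2 difference between drug and DMSO was -0.02 (SE 0.11) in KO and 0.04 (SE 0.07) in WT. The part of the total that was assigned to uc009bev.1 is what varied. If both rows share reads, that part is an estimate of how kallisto divided them, and TPM give no uncertainty for it. The part was 68.6%, 99.996%, 51.0% and 65.4% in KO DMSO and at most 0.0586% in KO rosiglitazone. In WT it was 30.1%, 2.29% and 0.14% in DMSO and at most 2.5% in rosiglitazone. The KO level of the total averaged 4.80 ± 0.64 TPM in DMSO, and with the drug 4.71 ± 0.60 TPM (SD, n = 4 each), and replicate 4 was the highest library in both groups. Without the KO libraries of replicate number 4 the log2 difference of the total was again -0.02, and those of uc009bev.1 and uc009bew.1 were -2.07 and 1.44.

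**Figure D3:**
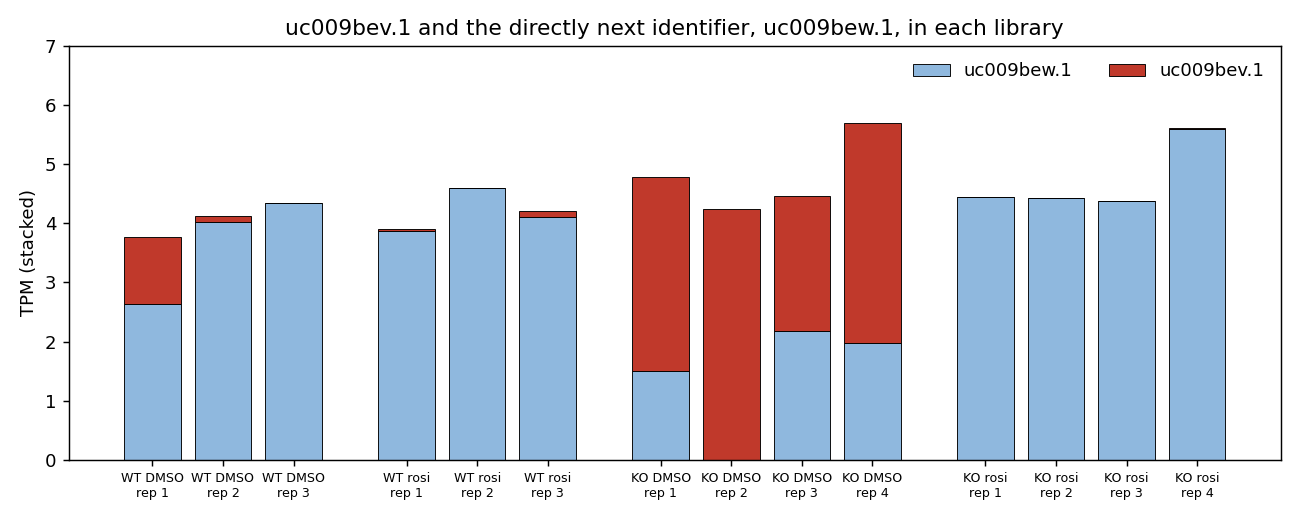
Stacked levels in TPM (vertical axis) of uc009bew.1 (blue) and uc009bev.1 (red) in each library (horizontal axis; rosi is rosiglitazone, rep the replicate number). The stack is between 3.77 and 5.70 TPM high in all 14 libraries, while the red part makes up 51.0% or more of it only in the 4 KO DMSO libraries.

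Among all tested transcripts, uc009bew.1 had the most negative correlation with uc009bev.1 over the 14 libraries (Pearson r = -0.887 on the log2 scale, rank 1 of 29303). Next came uc007fmp.1 (-0.881) and uc007bmt.3 (-0.880), both far from it in identifier order. The r uses the values that chose uc009bev.1, so it is not a separate test. An adjacent row had the most negative r for 241 of the 25141 tested transcripts that have a tested direct neighbour (0.959%). Of 19065 such adjacent pairs, 74 (0.388%) had an r as low or lower. Those shares are over rows not chosen for a group difference. The median r of adjacent pairs was 0.16. These counts were made after the pair had been seen, and an r over libraries of a transcript chosen for its group difference is a description. The row directly before, uc009beu.1, overlapped between the groups: the KO libraries read 0.156, 0.331, 0.169 and 2.18 TPM without the drug and 1.07, 0.259, 0.587 and 1.37 TPM with it (log2 difference 0.19, SE 0.32; limma, adjusted p = 0.973). The farthest row on that side, uc009bel.2, named here after its values were seen, differed by more TPM but with overlap, from 0.0323, 0.0072, 5.33 and 4.01 TPM without the drug to 1.07, 8.45, 11.4 and 7.74 TPM with it in KO (limma, adjusted p = 0.967).

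Around uc007fmp.1 no neighbour stood apart in the opposite direction (0 of 11 tested, background 1.48%). The directly next row, uc007fmq.1, came closest. The KO libraries read 3.65, 4.47, 3.63 and 5.18 TPM without the drug and 2.20, 1.61, 2.11 and 4.61 TPM with it, so that only the drug library of replicate 4 reached into the DMSO range. Its log2 difference was -0.58 (SE 0.26; limma, adjusted p = 0.967, unadjusted p = 0.0449). Its mean with the drug minus that in DMSO was -1.60 TPM, against 2.82 TPM for uc007fmp.1, and the total of both had a log2 difference of 0.25 (SE 0.26). This total was 6.18 ± 1.31 TPM in WT DMSO (SD, n = 3) and 4.26 ± 0.75 TPM in KO DMSO (SD, n = 4). These groups overlapped, at 4.67 to 7.05 and 3.65 to 5.22 TPM. Over the libraries the total ranged from 3.03 to 10.6 TPM, more widely than that of the pair above. In DMSO, KO minus WT was 0.50 (SE 0.28, limma adjusted p = 0.992) for uc007fmq.1, against -2.08 for uc007fmp.1. In WT, where uc007fmp.1 hardly differed, uc007fmq.1 read 1.50, 3.05 and 3.92 TPM without the drug and 3.09, 2.41 and 4.12 TPM with it. The KO difference of uc007fmq.1 was -0.80 within sample numbers 2 to 5 and -0.36 within 18 to 21.

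The row directly before it, uc007fmo.1, showed no opposite shift of that size. It stayed between 0.236 and 1.82 TPM in all libraries, with a KO log2 difference of -0.07 (SE 0.32; limma, adjusted p = 0.993), and its correlation with uc007fmp.1 was 0.26. The most abundant neighbour, uc007fmi.1, read 115, 118, 130 and 135 TPM in the KO libraries without the drug and 98.4, 105, 138 and 144 TPM in those with it. Its SD in KO DMSO was 9.61 TPM, more than the 2.82 TPM by which uc007fmp.1 differed. Of the 11 tested neighbours 10 had lower means with the drug, with a median log2 difference of -0.12, beside -0.09 over all tested transcripts.

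Beside uc009saj.1 the directly adjacent identifiers had no level to give up. The row before, uc009sai.2, was at most 0.0529 TPM in any library, and the row after, uc009sak.1, was listed at 0 in 13 libraries and at 0.0387 TPM in KO DMSO replicate 2. Neither passed the filter. The total of uc009saj.1 and either of them therefore moved as uc009saj.1 did, by 1.85 (SE 0.19) and 1.86 (SE 0.18) on the log2 scale in WT.

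Farther off, 2 of 10 tested neighbours were lower in all WT rosiglitazone libraries than in any WT DMSO library, where 6.73% of all tested transcripts were. Row uc009sae.2 read 1.26, 1.20 and 1.31 TPM without the drug and 0.202, 0 and 0.577 TPM with it (log2 difference -0.87, SE 0.32; limma, adjusted p = 1, unadjusted p = 0.0184). Row uc009sac.2 read 1.71, 1.45 and 2.92 TPM without it and 0.749, 1.23 and 1.39 TPM with it (log2 difference -0.49, SE 0.25; limma, adjusted p = 1). The KO libraries of uc009sac.2 differed by nearly as much, with a mean of 1.76 ± 0.54 TPM in DMSO and 1.00 ± 0.29 TPM with the drug (SD, n = 4 each; log2 difference -0.45, SE 0.22; limma, adjusted p = 0.967), although uc009saj.1 differed there by only 0.31. For uc009sae.2 the KO log2 difference was -0.33 (SE 0.28; limma, adjusted p = 0.967), and the groups overlapped. Their differences summed to -1.90 TPM, where that of uc009saj.1 was 3.68 TPM. Among the untested rows 1 neighbour, uc009sab.2, stood apart in the direction of uc009saj.1, with means of 0.0824 TPM in DMSO and 0.354 TPM in rosiglitazone. The most abundant neighbour, uc009saq.2, read 24.0, 23.1 and 21.8 TPM without the drug and 21.8, 23.7 and 27.6 TPM with it (log2 difference 0.08, SE 0.20; limma, adjusted p = 1). After median-of-ratios scaling 1 row, not 2, stood apart in the opposite direction.

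The transcripts most like uc009saj.1 over the 14 libraries were all outside its window of neighbours. These were uc007kfy.2 (Pearson r = 0.93), uc007iza.1 (r = 0.92) and uc009rhg.1 (r = 0.92). Transcript uc007kfy.2 read 0.521, 0.946 and 0.869 TPM in WT without the drug, 4.27, 2.27 and 2.03 TPM with it, and at most 1.01 TPM in KO. Transcript uc007iza.1 read 0.191, 0.543 and 0.573 TPM in WT without the drug, 1.83, 1.93 and 1.50 TPM with it and at most 0.705 TPM in KO. Both were thus highest in the same 3 libraries, and in KO both, like uc009saj.1, had their lowest value among sample numbers 18 to 21. Transcript uc009rhg.1 moved much less, from 5.33 to 5.61 TPM in WT DMSO to 6.35 to 7.19 TPM in WT rosiglitazone, with 4.81 to 5.83 TPM in KO. The lowest r belonged to uc008qzy.1 (-0.89), uc008cug.2 (-0.89) and uc008yzm.2 (-0.88). All 3 were more abundant than uc009saj.1: uc008yzm.2, for example, read 132, 117 and 142 TPM in WT without the drug and 92.4, 93.8 and 98.0 TPM with it. The lowest-ranked tested neighbour of uc009saj.1 was uc009sae.2, with an r of -0.57 and rank 1118.

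**Figure D4:**
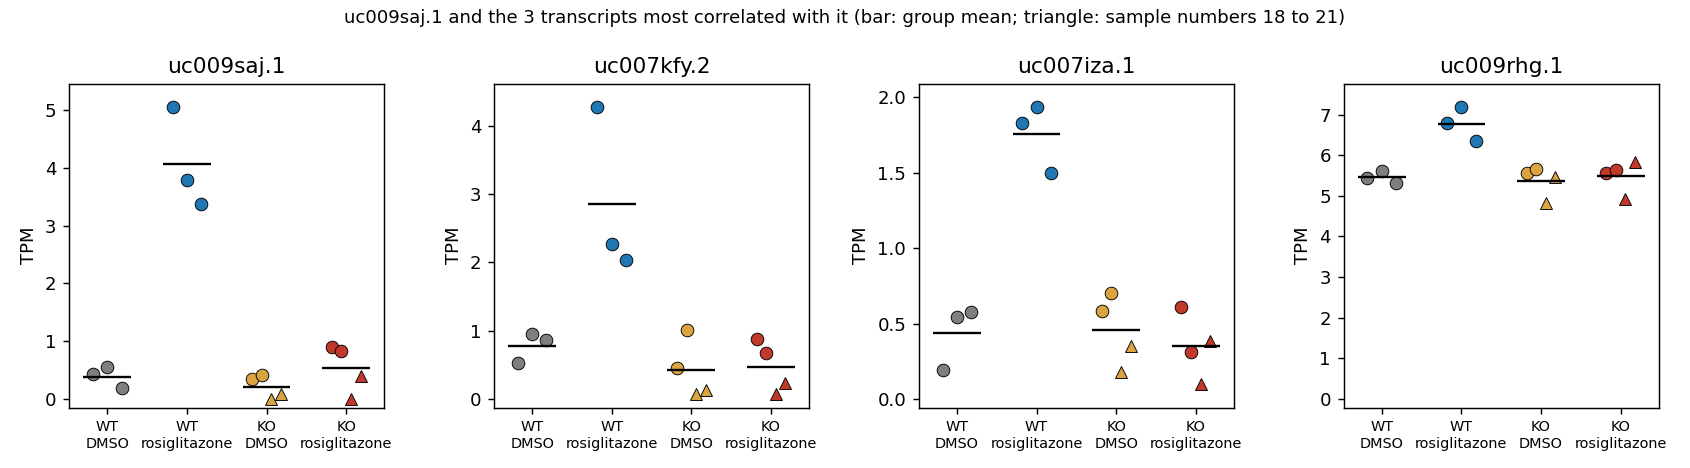
Levels in TPM (vertical axes, each panel with its own scale) of uc009saj.1 and its 3 most correlated transcripts in every library of the 4 groups (horizontal axis), where a triangle marks sample numbers 18 to 21 and the bar is the group mean. In each panel the 3 WT rosiglitazone libraries lie above all the others.

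For the pair chosen in KO, likeness follows in part from the choice. Transcripts uc007fmp.1 and uc009bev.1 were chosen on the same 8 KO libraries in opposite directions, and their own r was -0.88, the lowest of all for uc007fmp.1. Both also shared uc007bmt.3, which the 4 KO DMSO libraries listed at 0, with 0.876, 2.48, 1.45 and 1.62 TPM in KO with the drug and 0.864 to 2.01 TPM in WT (r = 0.82 with uc007fmp.1 and -0.88 with uc009bev.1). The highest r with uc009bev.1 was that of uc007kli.1 (0.86), which read 3.36, 3.08, 3.49 and 3.14 TPM in KO DMSO, was listed at 0 in 3 KO rosiglitazone libraries and had 1.63 TPM in the other, and was at most 1.9e-05 TPM in WT. It was followed by uc009gze.2 (0.85) and uc009etu.2 (0.83). For uc007fmp.1 the others were uc012cnb.2 (0.83) and uc007hje.1 (0.82) at the top and uc008btb.1 (-0.88) and uc007jnz.1 (-0.87) at the bottom. Of these, uc009bew.1 alone lay within 10 rows of the transcript it was ranked against. A correlation over 14 libraries that share scaling and 4 groups is given as a description, and the other transcripts were chosen by it from 29303.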

How the data were processed

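RNA from 14 carotid artery libraries was sequenced by the submitters. The authors deposited TPM values, 63244 transcripts by 14 libraries, each summing to about 1000000. Per the submitters' processing notes, the tools were kallisto, sleuth and FastQC, and GRCm38 and mm10 are the named builds; of their versions and the annotation no source used here speaks. Columns were matched to samples by sample number. Depth is unknown from TPM, and transcripts without names could not be summed to genes.

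The 29304 transcripts that reached 1 TPM in 3 or more libraries were fitted as log2(TPM + 1) with limma 3.58.1 in R 4.3.3, 1 mean per group over all 14 libraries, variances moderated with a trend, two-sided, Benjamini-Hochberg adjusted over all tested transcripts. Neighbours were the 10 rows before and after in identifier order, and totals were tested by exact permutation (SciPy 1.17.1). Named are the 3 transcripts, their direct neighbours, neighbours moving oppositely without overlap or called, the most abundant neighbour, and the 3 highest and lowest correlations. The members and lists were chosen with earlier results of these data known. Scripts were tested on simulated data. Alternatives covered pseudocount, filter, scaling, variance model, fitted groups, window, replicate block and left-out libraries. Added after seeing the data were pair totals and a fit without the KO replicates numbered 4. Plots used matplotlib 3.10.9.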

Additional observations from a re-analysis of the deposited data

Results flagged for a closer look

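In 45 sets of 4 KO values, the distance from the most extreme library to the next was divided by the whole spread of values, and 11 sets passed Dixon's critical value for 4 samples, 0.829. Chance flags about 1 in 20 sets, but many of these sets describe the same libraries. Replicate 4 was the high library in 9 of them. In KO DMSO these were uc009sae.2 (ratio 0.88, 2.14 TPM against at most 0.632), uc007fmp.1 (0.967, 0.0457 against at most 0.0218 TPM), uc009beu.1 (0.914, 2.18 against at most 0.331 TPM) and the neighbour total of uc009saj.1 (0.857, 130 against at most 92.8 TPM). In KO rosiglitazone they were uc009bev.1 (0.846, 0.0033 against at most 0.00051 TPM), uc009bew.1 (0.953, 5.60 against at most 4.44 TPM), the total of that pair (0.953), and the neighbour totals of uc009saj.1 (0.893, 116 against at most 89.5 TPM) and uc009bev.1 (0.864, 99.8 against at most 79.7 TPM). The remaining 2 sets held 1 value above 0 in KO DMSO, which makes the ratio 1 whatever that value is. These were uc009sai.2 in replicate 3 (0.0213 TPM) and uc009sak.1 in replicate 2 (0.0387 TPM).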

How the results depend on the processing

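No neighbouring row was called in any of the 5 comparisons under the alternatives run for it (0 in each), which says little where so few of all transcripts were called. For this count the replicate block was used only for the drug in WT and in KO. Same-numbered libraries had deviations correlated at 0.072 to 0.219, other-numbered ones at -0.122 to 0.109, and 5 of the 7 DMSO libraries correlated best with their own number, a hint from the data. Same-numbered libraries of a genotype also carry consecutive sample numbers, such as 7 and 6 for WT replicate 1. They were not taken as pairs, because only 4 of the 7 pairs were over 0.1 and pairing was set to need all of them. The labels do not say what either number means, so a pairing may have been missed. The replicate block cannot change a mean difference between complete pairs (-0.07, -0.10 and 0.11 for the neighbour totals of uc009saj.1, uc007fmp.1 and uc009bev.1), but the exact permutation p became 0.5, 0.375 and 0.125. The last is the smallest p that 4 pairs allow, so this p could not have been lower.

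Neighbour totals turned direction easily. Median-of-ratios scaling gave 0.0081, 0.0195 and 0.23, the last with an unadjusted exact permutation p of 0.0286. Windows of 3 rows gave 0.13 for uc009saj.1 and windows of 25 rows gave -0.032 for uc009bev.1. Leaving out single libraries gave -0.18 to 0.0068, -0.18 to -0.0048 and 0.028 to 0.19; the positive value came without WT rosiglitazone replicate 1. Tested neighbours standing apart in the opposite direction numbered 1 with scaling and 0 with windows of 3 rows for uc009saj.1, and 2 to 3 with single libraries left out. For uc007fmp.1 they numbered 1 with windows of 25 rows, 3 without sample numbers 18 to 21, 1 without both KO libraries numbered 4, and 0 to 1 with single libraries left out (1 without KO DMSO replicate 1 or KO rosiglitazone replicate 4). For uc009bev.1 they numbered 3 without sample numbers 18 to 21 and 1 to 2 with single libraries left out (2 without KO rosiglitazone replicate 1).

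With pseudocounts of 0.1 and 5 the log2 differences were 3.15 and 0.75 for uc009saj.1, 4.46 and 0.63 for uc007fmp.1 and -5.07 and -0.74 for uc009bev.1. Leaving out single libraries gave 1.77 to 2.07 for uc007fmp.1, -2.24 to -2.02 for uc009bev.1 and 0.99 to 1.54 for uc009bew.1. For uc009saj.1 it gave 1.75 to 1.95 over 11 libraries. Without any 1 of the 3 WT rosiglitazone libraries it misses the filter, and its total with uc009sak.1, listed at 0 in WT, then stayed within 1.73 to 1.96. Abundant or unmoved neighbours near 0 changed sign: uc009saq.2 between -0.0093 (without WT rosiglitazone replicate 3) and 0.15 with single libraries left out, uc007fmo.1 between -0.29 and 0.11 and uc007fmi.1 between -0.14 and 0.047 with single libraries left out, uc007fmi.1 to 0.070 with scaling, and uc009bey.3 to -0.028 without sample numbers 18 to 21, -0.046 without both KO libraries numbered 4 and between -0.047 and 0.093 with single libraries left out. The causes were not tested. Depth is unknown, which limits what can be said of levels near 0.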
